A study of Mus musculus with 12 samples.

Results

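The genes described here encode 38 enzymes and complex subunits that write or remove methyl groups on lysines 4, 9, 27 and 79 of histone H3 and lysine 20 of histone H4. They were taken by symbol from a count table of 55573 genes, and all 38 were found and passed the low-count filter that left 19174 genes. RNA had been measured in mouse embryonic fibroblasts (MEFs) of mid-gestation C57BL/6 embryos that carry i4F, a cassette from which doxycycline induces Oct4, Sox2, Klf4 and Myc (OSKM), the factors that turn fibroblasts into induced pluripotent stem cells. Its question was how vitamin B12, a cofactor of the methionine cycle, alters the early stage of this conversion. All cells were kept for 72 h in medium for pluripotent stem cells. Cells of the MEF group received neither doxycycline nor added B12, and those of the MEF+B12 group received 2 µM B12. The OSKM group received doxycycline at 1 µg/ml, and the OSKM+B12 group received doxycycline at 1 µg/ml and 2 µM B12. The doxycycline dose is that of the labels, and the methods of the study state it in mg/ml in place of µg/ml. Each group held 3 libraries, 1 from each of clones 1, 2 and 3, which are MEF cultures of separate embryos. Every cell carried the cassette, and doxycycline was given only with induction, so that effects of the drug and of the factors cannot be told apart.

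Histone methylation is written by enzymes that take the methyl group from S-adenosylmethionine, the product of the methionine cycle, and is removed by oxidases of the Kdm1 family and by Jumonji demethylases. Methylation of H3K4 marks active promoters and enhancers, H3K27 methylation by Polycomb repressive complex 2 (PRC2) marks silenced developmental genes, H3K9 methylation marks heterochromatin, H3K79 methylation marks transcribed gene bodies, and H4K20 methylation is tied to the cell cycle and to heterochromatin. In fibroblasts, H3K9 and H3K79 writers are known as barriers to reprogramming. RNA levels say nothing of the activity of these enzymes, which was not measured in these libraries.

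The libraries held between 56971244 and 79236795 counted read pairs. Values are given below in CPM, counts scaled to a common library total of 1000000, and the total of 10 fibroblast markers was 91100 to 144000 CPM per library. Pou5f1, the gene of Oct4, was at most 0.468 CPM without doxycycline. With doxycycline it was 18.5 to 20.7 CPM in clones 1 and 2 but 2.33 to 2.86 CPM in clone 3, so that induced cells of clone 3 carried far less of this transcript. Sox2 was at most 0.838 CPM without doxycycline. With it, Sox2 was 13.3 to 17.8 CPM in clones 1 and 2 and 2.18 to 2.33 CPM in clone 3. Myc was at most 23.25 CPM without doxycycline. With it, Myc was 43.6 to 53.4 CPM in clones 1 and 2 but at most 21.9 CPM in clone 3. Klf4 was not higher with doxycycline in any clone, at 108.3 to 122.5 CPM against 118.4 to 143.3 CPM without. Xist, expressed from an inactive X chromosome, was at most 0.0289 CPM in clone 1 and at least 218.5 CPM in clones 2 and 3, while the Y-linked gene Ddx3y was at least 80.2 CPM in clone 1 and 0 CPM in the others. The titles of clone 1 also carry another year than those of clones 2 and 3. A set of 12 macrophage markers summed to 1360 to 2600 CPM in MEF, 2050 to 3440 CPM in MEF+B12, 1400 to 2400 CPM in OSKM and 2140 to 2810 CPM in OSKM+B12, and none of them was at 0. In bulk RNA, fewer cells of a type and less RNA per cell cannot be told apart.

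The 38 genes spanned a wide range of levels in these fibroblasts. Compared per kilobase of exon, Ehmt2, which with Ehmt1 writes H3K9me1 and H3K9me2 in euchromatin, had the highest level, with a mean of 38.2 CPM per kilobase over the 12 libraries and a range of 37.0 to 40.5. The level of Smyd2, a lysine methyltransferase with histone and other substrates, followed at 15.8 ± 1.38 CPM per kilobase (SD, n = 12), and Kdm1a, the flavin-dependent eraser of H3K4 mono- and dimethylation, was at 15.1 ± 0.743. Smyd2 and Kdm1a differed by less than their SDs. Kmt5a, the only H4K20 monomethylase, was at 12.7 ± 0.840 CPM per kilobase and Wdr5, the core adaptor of the H3K4 complexes, at 11.98 ± 0.445. At the other end stood Suv39h2 with a level of 0.817 ± 0.177 CPM per kilobase, Kdm7a with 1.01 ± 0.0602, Smyd3 with 1.10 ± 0.117, Kmt2c with 1.43 ± 0.238 and Kmt2d with 1.74 ± 0.283. Of these neighbours, Kdm7a and Smyd3 differed by less than the larger of their SDs.

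**Figure D1:**
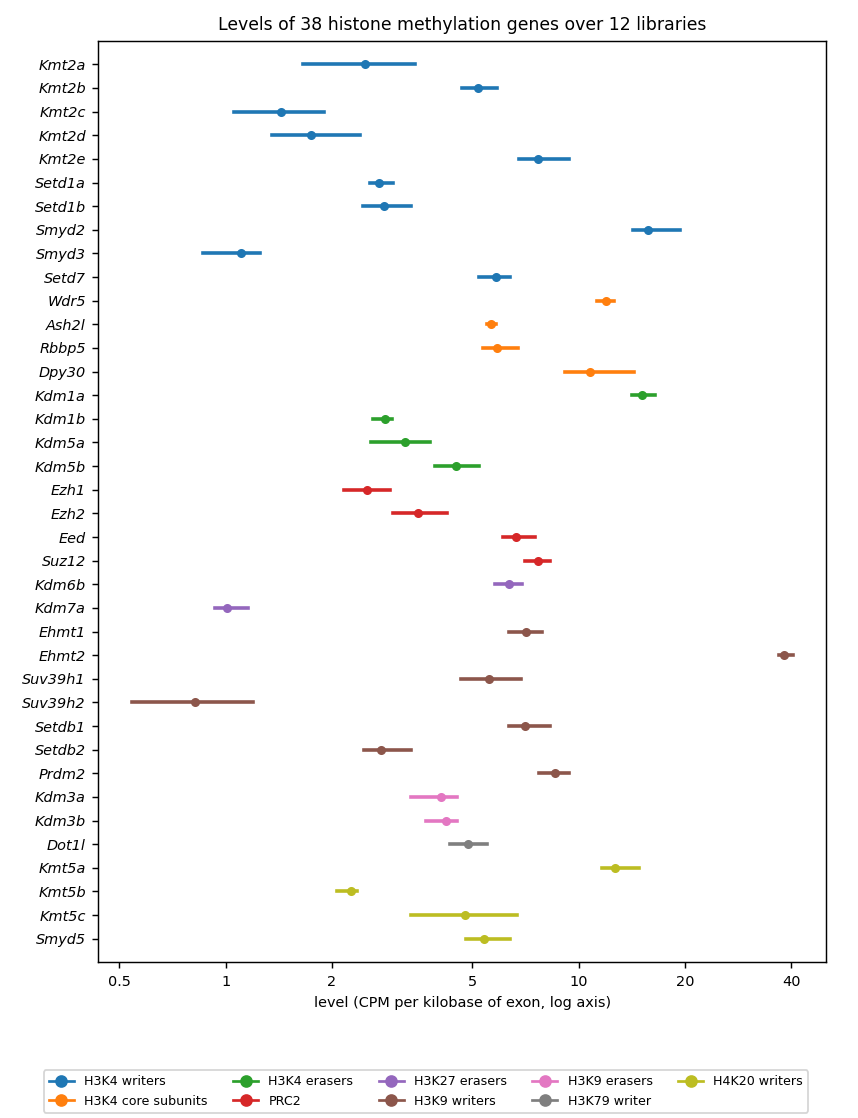
Level of each of the 38 genes in CPM per kilobase of exon on a log axis; points are means over 12 libraries, bars run from the lowest to the highest library and colours give the role. Ehmt2 stands apart at 38.2 CPM per kilobase and Suv39h2 is lowest at 0.817, and most bars are short beside the distances between genes.

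The levels varied little between libraries. The coefficient of variation over the 12 libraries had a median of 8.32% for the 38 genes and ran from 1.65% for Ash2l to 22.4% for Kmt5c, with a median of 13.2% over all genes tested and of 9.02% over the 12595 genes with a mean at least as high as the lowest of the 38. Kmt5c, Suv39h2, Kmt2a, Kmt2c and Kmt2d had the largest coefficients, at 22.4%, 21.7%, 18.1%, 16.6% and 16.2%.

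Of the 38 genes, 3 passed the test in a comparison of treatments. Kdm3a and Suv39h2 rose with induction averaged over the B12 states, and Kdm5b fell with B12 averaged over the induction states. Adjusted p-values are from edgeR's quasi-likelihood test over all genes with clone as a block, with a threshold of 0.05, and log2 fold changes are given ± their standard errors. For induction averaged over B12, 2 of 38 genes passed, both higher, against 9.73% of all genes tested. At an unadjusted p under 0.05 there were 6 of the 38, against 26.8% of all genes. For B12 averaged over induction 1 of 38 passed, against 3.84%, and 5 had an unadjusted p under 0.05, against 15.5%.

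Within single states no gene of the 38 passed with edgeR. For induction without B12 the count was 0 of 38 against 0.073% of all genes. There were 6 at an unadjusted p under 0.05, against 19% of all genes, and 1 passed with DESeq2, against 490 of 33090 genes. For induction with B12 it was 0 against 0.104%, with 3 unadjusted against 14.9% and 0 with DESeq2. B12 in OSKM cells gave 0 against 1.06%, with 2 unadjusted against 9.82% and 0 with DESeq2. B12 in MEF cells gave 0 against 1.38%, with 5 unadjusted against 10.3% and 0 with DESeq2. The B12 difference in OSKM minus that in MEF, the interaction, gave 0 of 38 and 0 unadjusted, and 0 with DESeq2, in a test that called 0% of all genes with 273 at an unadjusted p under 0.05.

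The 95% intervals of all 38 log2 fold changes lay within 0.5 of 0 in both averaged comparisons. Their outermost bounds were -0.32 and 0.47 for induction and -0.42 and 0.45 for B12. The fit behind them counted the libraries of a clone as separate samples, so that they measure the spread between cultures. Intervals reached beyond 0.5 for 4 genes for induction without B12 and 1 with B12. They did so for 1 gene for B12 in OSKM cells and 3 in MEF cells. For the interaction 4 genes did, with a highest bound of 0.83. The median log2 fold change of the 38 was 0.0165 with induction and -0.00395 with B12, beside -0.00284 and -0.0131 over all genes. The median absolute log2 fold changes were 0.0492 and 0.0445 for the 38 and 0.095 and 0.0738 for all genes. Compared clone by clone, 5 of the 38 genes moved in the same direction with induction in 6 of 6 pairs of libraries, all higher, against 15.6% of all genes. They were Suz12, Suv39h2, Kmt5a, Kdm3a and Wdr5. With B12 the count was again 5, with Eed, Suv39h2 and Dot1l higher and Kdm1a and Kdm5b lower, against 15.6% of all genes. The 5 are 13.2% of the 38 in each case, a share near that of all genes.

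**Figure D2:**
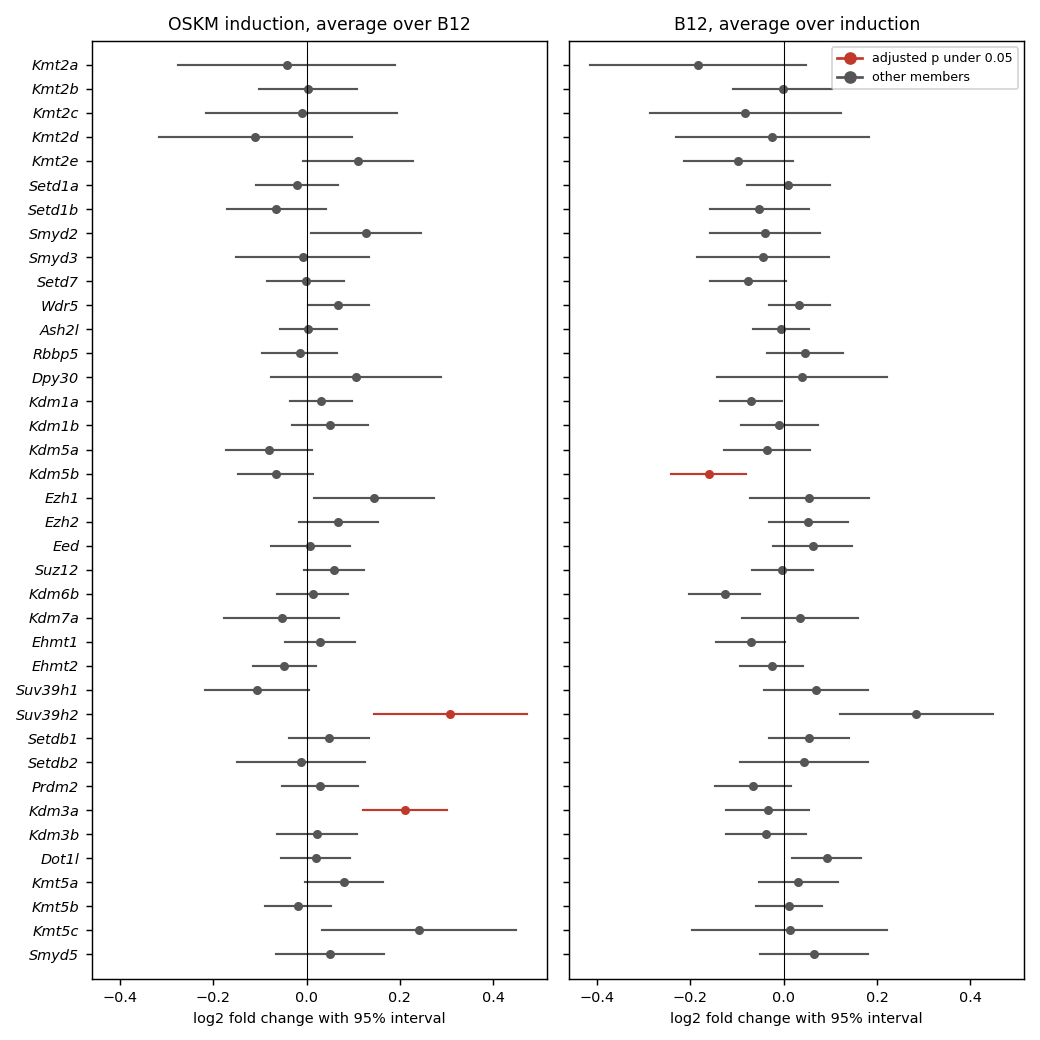
Log2 fold change of each of the 38 genes with induction (left) and with B12 (right), each averaged over the other factor; bars are 95% intervals of the blocked fit over 12 libraries. Kdm3a, Suv39h2 and Kdm5b, in red, pass the adjusted threshold, and all intervals lie between -0.42 and 0.47.

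The H3K4 writers of the COMPASS family are large enzymes that act in complexes: Setd1a and Setd1b carry most H3K4 trimethylation, Kmt2a and Kmt2b act at developmental promoters, and Kmt2c and Kmt2d write monomethylation at enhancers. None passed in a comparison of treatments, and Kmt2a, Kmt2c and Kmt2d varied most. Kmt2a had 39.5, 45.1 and 57.3 CPM in MEF clones 1, 2 and 3, and 38.4, 27.5 and 45.3 CPM in MEF+B12. It had 42.7, 34.3 and 44.9 CPM in OSKM and 46.2, 38.7 and 35.5 CPM in OSKM+B12. The groups overlapped, with the highest value in MEF clone 3 and the lowest in MEF+B12 clone 2. Its log2 fold change with B12 was -0.37 ± 0.15 in MEF cells (adjusted p = 0.41) and -0.0011 ± 0.15 in OSKM cells (adjusted p = 0.999). Kmt2c ran from 21.4 CPM in MEF+B12 clone 2 to 38.5 CPM in MEF clone 3, and Kmt2d from 27 to 47.9 CPM in the same libraries. With induction in the absence of B12, Kmt2d had a log2 fold change of -0.29 ± 0.13 (adjusted p = 0.262).

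Other genes with a long coding sequence varied in the same libraries. Kmt2a, Kmt2c and Kmt2d have coding sequences of 11898, 14712 and 16764 bases, and 83 other genes tested have at least 10000, a limit set after the values were seen. In MEF clone 3 the log2 CPM of Kmt2a, Kmt2c and Kmt2d lay 0.49, 0.42 and 0.48 above their 12-library means, and the median of the 83 genes lay 0.39 above. In MEF+B12 clone 2 these distances were -0.56, -0.42 and -0.35, with a median of -0.38 for the 83 genes. The median over all genes tested was at most 0.0101 from 0 in every library. With B12 in MEF cells, 76 of the 83 genes had a log2 fold change below 0, with a median of -0.24, and 0 passed the threshold. The part that this shift shared by long transcripts has in the values of the Kmt2 genes was not tested.

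**Figure D3:**
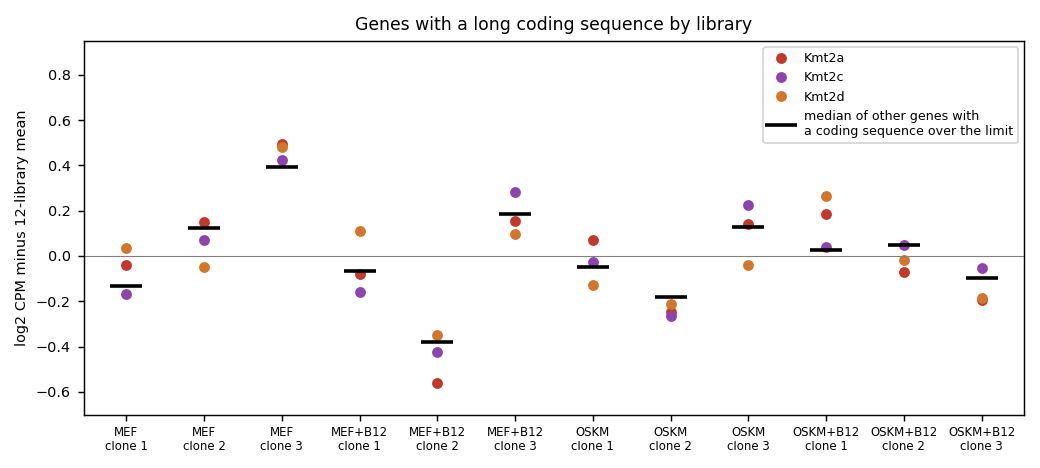
Log2 CPM of Kmt2a, Kmt2c and Kmt2d in each of the 12 libraries minus the gene's mean over them, with the median of 83 other genes of at least 10000 coding bases as black bars. The genes and the median are highest in MEF clone 3 and lowest in MEF+B12 clone 2.

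The other H3K4 writers moved less. Kmt2b ran from 44.9 to 56.5 CPM over the 12 libraries and Setd1b from 29.6 to 40.4 CPM, both again lowest in MEF+B12 clone 2 and highest in MEF clone 3. Setd1a was within 17.4 to 20.3 CPM, but 51.8% of its exon bases are also covered on the same strand by the predicted gene Gm49388, so that its counts are uncertain. Kmt2e, a relative of the family without known methyltransferase activity, ran from 70.8 to 98.0 CPM, with a log2 fold change of 0.11 ± 0.053 with induction (adjusted p = 0.215). Setd7, a H3K4 monomethylase with many other substrates, ran from 56.6 to 68.9 CPM. Smyd2 had 40.5, 42.6 and 39.1 CPM in MEF and 52.8, 45.2 and 40.5 CPM in OSKM, and its log2 fold change with induction averaged over B12 was 0.13 ± 0.053 (adjusted p = 0.153). Smyd3 ran from 7.95 to 11.5 CPM.

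The core subunits Wdr5, Ash2l, Rbbp5 and Dpy30, which every COMPASS complex needs for full activity, did not pass in a comparison of treatments. Ash2l had 49.5 to 52.3 CPM over all 12 libraries. Its ratio of the highest to the lowest library, 1.06, was the smallest of the 38 genes. Wdr5 had 41.9, 43.5 and 40.5 CPM in MEF and 42.0, 44.8 and 42.9 CPM in OSKM, and 42.6, 43.1 and 40.9 CPM in MEF+B12 and 44.9, 44.8 and 45.2 CPM in OSKM+B12. It was higher in the induced library of 6 of 6 pairs, by a log2 fold change of 0.068 ± 0.030 (adjusted p = 0.171). Rbbp5 was within 21.01 to 26.5 CPM and shares 11.3% of its 31-base words with other genes, most of them with the predicted gene Gm11977. Dpy30 varied most of them, from 10.5 to 16.5 CPM with a coefficient of variation of 12.4%, and was highest in OSKM clone 1.

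Among the H3K4 erasers, Kdm5b fell with B12. This Jumonji enzyme removes H3K4 tri- and dimethylation. Kdm5b (ENSMUSG00000042207, chr1:134560171-134635285 in GRCm38, plus strand) had 77.2, 79.5 and 86.6 CPM in MEF clones 1, 2 and 3 and 73.8, 65.0 and 75.9 CPM in MEF+B12. It had 75.4, 70.3 and 83.6 CPM in OSKM and 70.7, 66.3 and 70.8 CPM in OSKM+B12. The B12 library was the lower one in 6 of 6 pairs, with no overlap between MEF and MEF+B12, while OSKM and OSKM+B12 overlapped in that clones 1 and 3 with B12 lay just above clone 2 without. The log2 fold change averaged over the states was -0.16 ± 0.036 (95% interval -0.24 to -0.081, adjusted p = 0.0332), with -0.18 ± 0.051 in MEF cells and -0.14 ± 0.051 in OSKM cells. It did not pass without clone 2 (adjusted p = 0.37) or without clone 3 (adjusted p = 0.383). Beside this, all 12 macrophage markers rose with B12, with a median log2 fold change of 0.56. Of 18 proliferation markers 2 rose and 0 fell. Of 10 fibroblast markers 0 passed and 0 had a log2 fold change above 0, with a median of -0.115. Kdm5b was highest in MEF clone 3 and lowest in MEF+B12 clone 2, as was the median of the genes with a long coding sequence described above. The parts of that shift and of the mix of cells in the value of Kdm5b were not tested.

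Kdm5a, the paralog of Kdm5b, did not pass. It was lower with B12 in all 3 MEF pairs, by a log2 fold change of -0.12 ± 0.059 (adjusted p = 0.554), and had 0.047 ± 0.059 in OSKM cells (adjusted p = 0.839). Its log2 fold change with B12 averaged over the states was -0.035 ± 0.042 (95% interval -0.13 to 0.057, adjusted p = 0.736), and the ratio of Kdm5a to Kdm5b was higher with B12 in all 3 clones, by 0.12 ± 0.019 on the log2 scale (SD, n = 3 clones). Kdm1a was lower with B12 in 6 of 6 pairs, by a log2 fold change of -0.070 ± 0.030 that did not pass (adjusted p = 0.298). Kdm1b, the second flavin-dependent eraser, stayed within 14.3 to 16.3 CPM.

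The bases just before the start of the 3 genes that passed are shown because these were the genes of the 38 that passed in a comparison of treatments. They come from RefSeq promoter windows of GRCm38.p6, which hold 29 of the 38 genes, and are cut at the start of the gene in the annotation. Kdm3a has 3 starts in these windows, of which the outermost was used. The stretches lie at chr1:134559928-134560170 on the plus strand for Kdm5b, at chr6:71632991-71633167 on the minus strand for Kdm3a and at chr2:3475032-3475236 on the minus strand for Suv39h2. Capitals mark matches on either strand to motifs of induced factors and of common promoter factors.
Kdm5b: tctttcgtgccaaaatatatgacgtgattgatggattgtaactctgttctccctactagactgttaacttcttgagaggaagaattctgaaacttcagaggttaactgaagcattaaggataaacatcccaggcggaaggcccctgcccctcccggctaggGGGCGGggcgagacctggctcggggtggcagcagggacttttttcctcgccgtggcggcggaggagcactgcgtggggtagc
Kdm3a: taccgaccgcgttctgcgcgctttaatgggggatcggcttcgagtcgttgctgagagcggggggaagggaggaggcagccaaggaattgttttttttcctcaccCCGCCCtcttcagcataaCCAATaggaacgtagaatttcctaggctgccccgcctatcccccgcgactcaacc
Suv39h2: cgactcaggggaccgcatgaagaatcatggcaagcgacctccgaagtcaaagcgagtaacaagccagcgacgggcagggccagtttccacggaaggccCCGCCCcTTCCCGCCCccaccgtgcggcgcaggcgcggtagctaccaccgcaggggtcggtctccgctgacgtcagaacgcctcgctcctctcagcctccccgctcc
The motifs searched were the octamer ATGCAAAT, the SOX motif CATTGTN, the KLF motif GGGNGTGG, the E-box CACGTG bound by Myc, the E2F motif TTCCCGC, the sequence CCAAT bound by NF-Y, and the GC box GGGCGG. The stretch of Kdm5b holds 1 GC box. That of Kdm3a holds 1 GC box and 1 CCAAT. That of Suv39h2 holds 2 GC boxes and 1 E2F motif, which overlaps the second GC box. The stretches shown do not hold the octamer, the SOX motif, the KLF motif or the E-box, but another of the windows of Kdm3a holds the KLF motif. Over all 32851 windows of 300 bases, 35.7% hold the GC box, 37.4% CCAAT, 4.6% the E2F motif, 1.74% the octamer, 12.5% the SOX motif, 17.6% the KLF motif and 7.15% the E-box.

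Of the PRC2 genes, none passed in a comparison of treatments. Ezh2 and Ezh1 are its alternative H3K27 methyltransferases, and Eed and Suz12 are subunits that both need. Ezh1 had 18.3, 16.6 and 17.3 CPM in MEF, 18.6, 17.8 and 17.9 CPM in MEF+B12, 21.03, 20.9 and 16.1 CPM in OSKM and 19.9, 21.7 and 18.5 CPM in OSKM+B12. The induced libraries of clones 1 and 2 lay above all uninduced ones, and those of clone 3, in which Pou5f1 was lowest, did not. Its log2 fold change with induction averaged over B12 was 0.15 ± 0.058 (adjusted p = 0.138). Without clone 3 it passed, at 0.23 (adjusted p = 0.0305), in a fit where 3056 of all 19231 genes tested passed. Without clone 2 it was 0.067 (adjusted p = 0.683) and without clone 1 it was 0.14 (adjusted p = 0.404). A test of whether the response of Ezh1 to induction differed between clones gave an adjusted p of 0.265. Ezh2, which is tied to dividing cells, had a log2 fold change of 0.068 ± 0.038 (adjusted p = 0.288). Suz12 was higher with induction in 6 of 6 pairs, by 0.059 ± 0.029 (adjusted p = 0.228), and stayed within 34.9 to 41.2 CPM. Eed ran from 23.4 to 28.9 CPM and was higher with B12 in 6 of 6 pairs, by 0.062 ± 0.038 (adjusted p = 0.483).

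The H3K27 demethylase Kdm6b was lower with B12 in 5 of 6 pairs without passing the test. It had 46.8, 44.5 and 47.8 CPM in MEF and 42.7, 40.4 and 42.2 CPM in MEF+B12, with no overlap, and 44.0, 45.9 and 48.1 CPM in OSKM and 44.3, 42.6 and 41.6 CPM in OSKM+B12, with overlap. The log2 fold change averaged over the states was -0.13 ± 0.034 (95% interval -0.20 to -0.051, adjusted p = 0.0773). Leaving out OSKM clone 1 took it past the threshold, at -0.15 (adjusted p = 0.0178), while leaving out clone 3 gave -0.080 (adjusted p = 0.571) and leaving out clone 2 an adjusted p of 0.489. The macrophage markers that rose with B12, and the fibroblast markers described with Kdm5b, move beside this value. They also move beside the values of Suv39h2 and Dot1l below, and their part in these values was not tested. Kdm7a, an eraser of H3K9 and H3K27 methylation with a plant homeodomain, was within 9.41 to 11.6 CPM, with a log2 fold change of 0.035 ± 0.056 with B12 (adjusted p = 0.814).

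Suv39h2 and Kdm3a, which act on H3K9 in opposite directions, both rose with induction. Suv39h2 is the less abundant of the pair of enzymes that trimethylate H3K9 in pericentric heterochromatin. Suv39h2 (ENSMUSG00000026646, chr2:3455815-3475031, minus strand) had 3.57, 2.39 and 2.74 CPM in MEF clones 1, 2 and 3 and 4.14, 3.44 and 3.19 CPM in OSKM. With B12 it had 4.25, 3.27 and 3.10 CPM in MEF+B12 and 5.26, 4.29 and 3.56 CPM in OSKM+B12. Within every clone the OSKM+B12 library was the highest and the MEF library the lowest, while the groups overlapped because clone 1 lay above the others throughout. The log2 fold change with induction averaged over B12 was 0.31 ± 0.074 (95% interval 0.15 to 0.47, adjusted p = 0.0313). With B12 averaged over induction it was 0.28 ± 0.074, higher in 6 of 6 pairs (adjusted p = 0.0647). The interaction was -0.011 ± 0.15 (95% interval -0.34 to 0.31, adjusted p = 1).

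Kdm3a (ENSMUSG00000053470, chr6:71588972-71632990, minus strand) removes H3K9 mono- and dimethylation. It had 28.1, 31.7 and 33.6 CPM in MEF clones 1, 2 and 3 and 36.2, 37.3 and 36.4 CPM in OSKM. With B12 it had 27.5, 31.6 and 33.8 CPM in MEF+B12 and 33.9, 36.0 and 35.4 CPM in OSKM+B12. All 6 induced libraries lay above all 6 uninduced ones. The log2 fold change averaged over B12 was 0.21 ± 0.041 (95% interval 0.12 to 0.30, adjusted p = 0.0207). By clone the difference was 0.365, 0.235 and 0.116 without B12 and 0.297, 0.188 and 0.0657 with B12, smallest in clone 3 in both. A test of whether this response differed between clones gave an adjusted p of 0.226. Kdm3b, its paralog, had a log2 fold change of 0.022 ± 0.038 (95% interval -0.062 to 0.11, adjusted p = 0.755).

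Both calls counted the libraries of a clone with and without B12 as separate samples. With the libraries of each clone and state summed, an alternative chosen after seeing the data, 13 of all genes passed for induction and the adjusted p was 0.214 for Kdm3a and 0.223 for Suv39h2. Leaving out clone 1 gave 0.26 and 0.262, and leaving out clone 2 gave 0.426 for both, with log2 fold changes of 0.15 to 0.33 in these 4 fits. Beside them, 4 of 10 fibroblast markers and 1 of 4 neural markers fell and 3 of 4 epithelial and 2 of 3 endothelial markers rose with induction. Of 12 macrophage markers 1 rose and 2 fell, and of 18 proliferation markers 1 rose and 1 fell. The part of these markers in the values of Kdm3a and Suv39h2 was not tested.

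**Figure D4:**
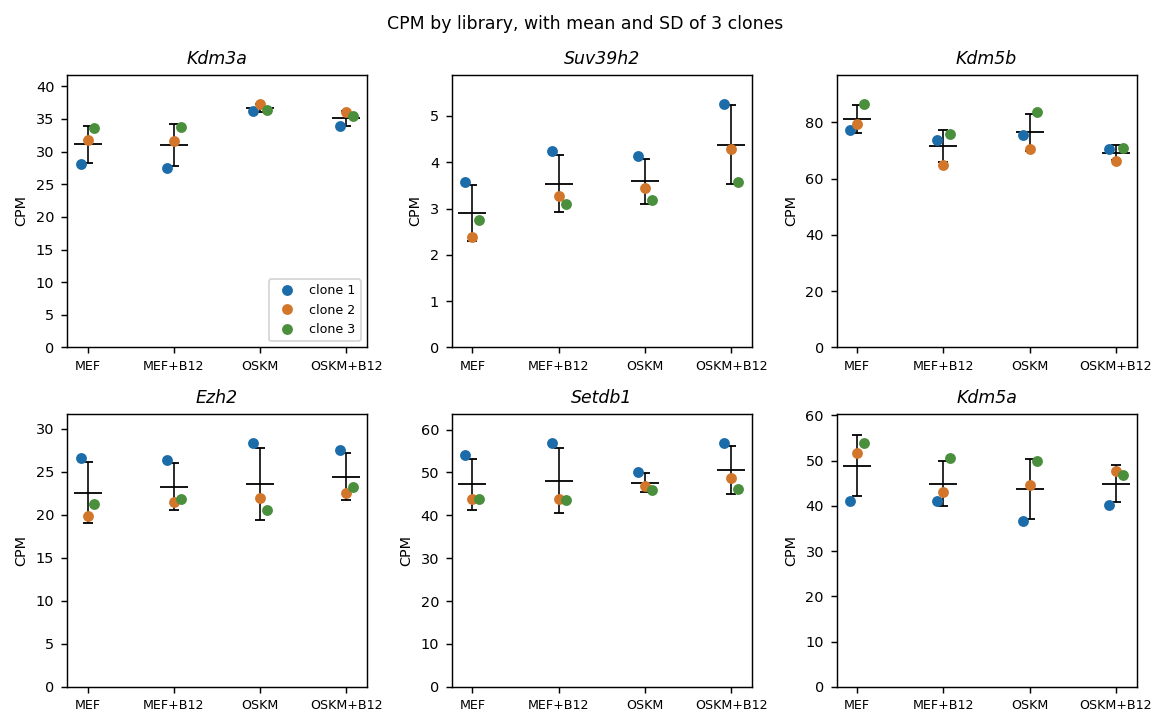
CPM of 6 genes in each of the 12 libraries, coloured by clone, with the mean and SD of 3 clones per group as black marks. The induced libraries of Kdm3a lie at 33.9 CPM or more and the uninduced at 33.8 or less, and clone 1 is set apart for Ezh2, Setdb1 and Kdm5a in every group.

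The other H3K9 writers did not pass in a comparison of treatments. Ehmt2 had 203.3 to 222.4 CPM and Ehmt1, its partner, 51.5 to 63.8 CPM over the 12 libraries. Suv39h1, the X-linked paralog of Suv39h2, had 34.9, 26.4 and 28.7 CPM in MEF and 28.6, 24.4 and 28.7 CPM in OSKM, with a log2 fold change of -0.11 ± 0.051 with induction averaged over B12 (adjusted p = 0.209). Setdb1, which silences retroelements, ran from 43.6 to 56.8 CPM and shares 10.1% of its 31-base words with other genes. Setdb2 ran from 9.98 to 13.53 CPM and Prdm2 from 57.2 to 69.5 CPM.

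For H3K79, the sole writer Dot1l had 42.9, 37.8 and 39.7 CPM in MEF and 48.0, 40.9 and 42.0 CPM in MEF+B12, and 46.6, 40.5 and 37.7 CPM in OSKM and 47.4, 42.3 and 40.5 CPM in OSKM+B12. The B12 library was the higher one in 6 of 6 pairs, by a log2 fold change of 0.092 ± 0.033 that did not pass (adjusted p = 0.202). With induction Dot1l had a log2 fold change of 0.020 ± 0.034 (95% interval -0.054 to 0.094).

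Of the H4K20 genes, Kmt5c varied most. Kmt5b and Kmt5c write di- and trimethylation onto the mark that Kmt5a sets, and Smyd5 has been tied to the trimethylated form. Kmt5c had 21.1, 13.4 and 16.2 CPM in MEF, 20.5, 17.8 and 15.3 CPM in MEF+B12, 25.0, 23.4 and 15.0 CPM in OSKM and 26.9, 17.2 and 16.9 CPM in OSKM+B12. OSKM minus MEF was 0.796 in clone 2 and -0.109 in clone 3 on the log2 scale, and the averaged log2 fold change of 0.24 ± 0.094 did not pass (adjusted p = 0.131). Kmt5a was higher with induction in 6 of 6 pairs, by 0.080 ± 0.038 (adjusted p = 0.204). Kmt5b stayed within 30.5 to 34.7 CPM and Smyd5 within 28.0 to 37.4 CPM.

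More of the 38 genes passed the test between clones than in any comparison of treatments. The same held over all genes tested, with 7239 between clones and at most 1865 in a comparison of treatments. The level differed between clones for 13 of the 38 genes, or 34.2%, against 37.8% of all genes tested. The 4 libraries of a clone are cultures of 1 embryo, so that this test measures the spread between cultures and not between embryos. Of the 13, 8 had their highest mean in clone 1 and 3 their lowest, and without clone 1 the test passed 1 gene of the 38 and 1315 of all 19102 genes tested. Ezh2 had 26.4 to 28.4 CPM in the 4 libraries of clone 1 and 19.9 to 23.2 CPM in the 8 others (adjusted p = 0.000321). Setdb1, Suz12 and Dot1l were likewise higher in every library of clone 1, with 50.1 to 56.8 CPM for Setdb1 against 43.6 to 48.8 CPM in the others (adjusted p = 0.00161). Kdm5a was lower, with 36.6 to 41.1 CPM in clone 1 and 43.1 to 53.9 CPM in the others (adjusted p = 0.00133). Kmt5b was also lower in every library of clone 1, at 30.5 to 32.9 CPM, but did not pass (adjusted p = 0.181). How many of all genes tested were set apart in this way, or highest or lowest in clone 1, was not counted. Kmt2c, Suv39h1, Suv39h2, Kmt5c, Smyd3, Setd7, Kdm5b and Rbbp5 also passed, with overlapping libraries. Beside them, 14 of 18 proliferation markers differed between clones, and their sum was 1110 to 1210 CPM in clone 1 and 936 to 1040 CPM in clones 2 and 3. Embryo, sex and title year move together in clone 1 and cannot be told apart. A further test asked if the clones were unlike in how they responded to induction. Of the 38 genes 0 passed with edgeR, against 2.15% of all genes, with 4 at an unadjusted p under 0.05 and 0 with DESeq2. Differences between the clones in the effect of B12 were not tested.

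The ratio within the Suv39h pair differed in the same direction in every pair of libraries. Per kilobase, Suv39h1 exceeded Suv39h2 by a ratio of 8.18, 9.26 and 8.75 in MEF clones 1, 2 and 3 and of 7.14, 7.25 and 7.57 in MEF+B12. In OSKM the ratio was 5.78, 5.95 and 7.52, and in OSKM+B12 it was 4.82, 5.26 and 7.04. The difference in log2 units was -0.42 ± 0.22 with induction and -0.22 ± 0.057 with B12 (SD, n = 3 clones), with every pair lower. The ratios are given as a description, with no test, and the values of Suv39h2 enter both numbers. The ratio of Kdm3a to Kdm3b was higher with induction by 0.19 ± 0.11, and that of Kdm6b to Kdm7a differed by -0.16 ± 0.048 with B12. The ratio of Ezh2 to Ezh1 was between 1.16 and 1.62 and differed by -0.077 ± 0.12 with induction and by -0.0025 ± 0.0069 with B12, in log2 units. The summed level of the 6 COMPASS writers over that of the 4 H3K4 erasers was between 0.569 and 0.731 and differed by -0.037 ± 0.097 with induction and by 0.029 ± 0.11 with B12, less than its spread between clones. That of the 7 H3K9 writers over the H3K9 erasers Kdm3a and Kdm3b was between 7.86 and 9.59. It differed by -0.22, -0.12 and -0.059 with induction in clones 1, 2 and 3, a mean of -0.13 ± 0.080. With B12 it differed by 0.023 ± 0.026, again in log2 units (SD, n = 3 clones). Ehmt2, at a mean of 38.2, was the largest part of a writer sum of 66.9 to 74.3 CPM per kilobase. The values of Kdm3a, which passed with induction, enter the eraser sum. Kdm7a was not in that sum. Kdm5c, an H3K4 demethylase outside the 38 genes, was not among the H3K4 erasers.

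**Figure D5:**
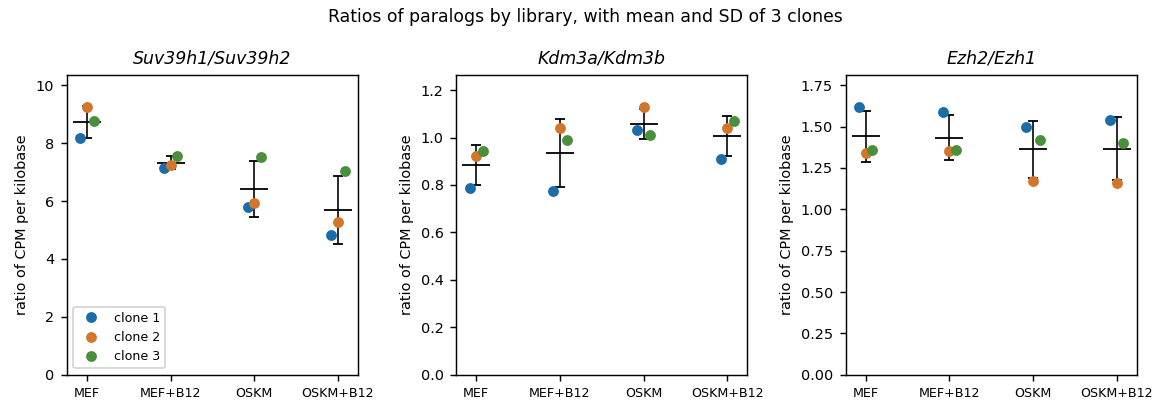
Ratio of levels in CPM per kilobase for 3 pairs of paralogs in each library, coloured by clone, with the mean and SD of 3 clones per group as black marks. Suv39h1 over Suv39h2 runs from 9.26 in MEF clone 2 to 4.82 in OSKM+B12 clone 1, and Ezh2 over Ezh1 stays between 1.16 and 1.62.

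A list of 58 partners and further enzymes of the same pathways, of which 55 were tested, was compared in the same way. With induction averaged over B12, 4 of 55 passed, of which 3 rose and 1 fell, against 9.73% of all genes. Rcor2, a corepressor that binds Kdm1a, rose by 0.67 ± 0.11, Psip1, a chromatin reader that binds Kmt2a through menin, by 0.44 ± 0.076 and Setd6, a lysine methyltransferase, by 0.36 ± 0.081 (adjusted p = 0.017, 0.0172 and 0.027). Phf19, an accessory subunit of PRC2, fell by 0.22 ± 0.052 on the log2 scale (adjusted p = 0.0288). The response of Rcor2 and Psip1 also differed between clones (adjusted p = 0.0348 and 0.0132). Rcor2 had 8.47, 6.04 and 6.05 CPM in MEF clones 1, 2 and 3 and 14.1, 13.7 and 7.31 CPM in OSKM, the smallest step being that of clone 3. With B12 averaged over induction, 2 of 55 passed against 3.84% of all genes, both higher: L3mbtl2, a Polycomb-type reader, by 0.23 ± 0.040 (adjusted p = 0.00706) and Uhrf1, which couples H3K9 methylation to DNA methylation, by 0.14 ± 0.035 (adjusted p = 0.0428). Between clones 26 of 55 differed, against 37.8% of all genes. Setd4, Mllt3 and Phf19 were the highest in clone 1 relative to the others, by 0.60, 0.57 and 0.46 in log2 units, and Mecom, Kdm6a and Kdm5c the lowest, by -0.72, -0.49 and -0.42. Kdm6a and Kdm5c are X-linked demethylases of H3K27 and H3K4 that are known to escape X inactivation, and they had 17.8 to 19.7 and 81.5 to 92.0 CPM in clone 1 and 25.4 to 28.0 and 108.7 to 125.6 CPM in the others.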

How the data were processed

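RNA was measured in 12 libraries of MEFs in 4 groups. Per the methods, the authors made strand-specific poly(A) libraries, aligned read pairs to mm10 with STAR (version 2.5.2 in the submitters' processing notes) and counted them per gene with featureCounts on Ensembl genes. The deposited values are raw counts, with flow cells summed and replicates kept apart.

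The 38 genes and all lists were chosen with earlier results of these data known. Symbols, coordinates and exon lengths came from GENCODE M21 (GRCm38), which matched 55480 of 55573 identifiers. edgeR 4.0.16 gave the tests, with TMM factors (0.934 to 1.06), filterByExpr, quasi-likelihood F tests on group and clone, and Benjamini-Hochberg adjustment. Clone was kept as a block because each is 1 embryo. Deviations from the group means correlated at 0.27 to 0.687 between libraries of the same clone. The coefficient of variation between replicates was 8.04%. Log2 CPM used a prior count of 2. Counts carry no molecular identifiers. Scripts were tested on simulated data. Alternatives were DESeq2 1.42.0, its size factors, library totals, no filter, at least 10 counts per library, no block, only the libraries compared and omission of each clone or of OSKM clone 1. All 38 genes are named, and partners were named only past the threshold, at most 3 rises and 3 falls a comparison by size of the log2 fold change.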

Additional observations from a re-analysis of the deposited data

How the results depend on the processing

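For induction averaged over B12 the count of the 38 genes past the threshold was 2, and 0 without the replicate block, 0 with the libraries of a clone summed, and between 0 and 3 with a clone or OSKM clone 1 left out. Of all genes, 1865 passed for this comparison, with 0 without the block and 13 with the libraries summed. There were 10 without clone 1, 3 without clone 2, 3056 without clone 3 and 771 without OSKM clone 1. For B12 averaged over induction the count of the 38 was 1, and 0 without the replicate block and between 0 and 2 with libraries left out. All genes here gave 736, and 90 without the block. They gave 525 without clone 1, 34 without clone 2, 317 without clone 3 and 785 without OSKM clone 1. Of the 38, induction without B12 gave 0, and 1 with DESeq2 and between 0 and 1 with libraries left out. In both cases it was Kdm3a (adjusted p = 0.0436 with DESeq2 and 0.034 without clone 3). The response to induction between clones gave 0, and 2 with no filter and between 0 and 1 with libraries left out. The level between clones gave 13, and between 1 and 12 with libraries left out. Kmt5c passed for induction with no filter (adjusted p = 0.0471) and Wdr5 with library totals (adjusted p = 0.0406). Of 2888 recomputed fold changes 191 changed sign, none of them with an adjusted p under the threshold. Depth bears most on Suv39h2, at 2.39 to 5.26 CPM.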

Other observations

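Promoter windows of RefSeq were held for 29 of the 38 genes, some with several starts. The GC box GGGCGG stood in a window of 20 of them, CCAAT in 12, the KLF motif GGGNGTGG in 7 (Ezh1, Dot1l, Kmt5a, Kmt5c, Smyd5, Kdm1b and Kdm3a), the E2F motif TTCCCGC in 3 (Suz12, Suv39h2 and Kmt5c), the SOX motif CATTGTN in 2 (Dot1l and Rbbp5), the E-box CACGTG in 1 (Ehmt2) and the octamer ATGCAAAT in 0. A gene was counted where any of its windows matched, so that the shares of single windows given above are no background for these counts. The share of all genes with a match was not counted. These are matches of letters only.

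Single libraries held many of the extreme values of the 38 genes. MEF+B12 clone 2 was the lowest of the 12 libraries for 14 genes and the highest for 0, and MEF clone 3 was the highest for 11. OSKM clone 1 and OSKM+B12 clone 1 were each the highest for 8. Counts of this kind were not made over all genes tested, so that no background share stands beside them.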
